A study of Mus musculus with 16 samples.

Results

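Gene expression was compared between fibro/adipogenic progenitors (FAPs) of wild-type mice that were treated in culture with interleukin-4 (IL-4) and FAPs of wild-type mice treated with vehicle. FAPs are mesenchymal cells that lie between the fibres of muscle and can turn into fibroblasts or adipocytes. The comparison used 8 of the 16 arrays of the series, chosen by their titles: vehicle arrays 1 to 4 and IL-4 arrays 5 to 8. The other 8 arrays held FAPs of the genotype labelled IL4RA -/-, which lacks the alpha chain of the IL-4 receptor, under the same treatments with 4 arrays each. All cells came from skeletal muscle of mice of the Balb/cJ background and were plated before RNA was taken. The dose and duration of IL-4, the age and sex of the mice and the number of mice per array are not given in the sources used here. The series calls the 4 arrays of a condition biological replicates. The wild-type titles are numbered 1 to 4 under vehicle and 5 to 8 with IL-4, so no number pairs the treatments, and number and treatment cannot be told apart. P-values below measure the spread between these arrays.

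IL-4 is a cytokine of type 2 immunity that binds its receptor alpha chain and then recruits a second chain. Janus kinases on the receptor phosphorylate the transcription factor STAT6, which forms dimers, enters the nucleus and binds DNA at palindromes of the form TTC, a short spacer and GAA. Cytokine-induced SH2 proteins such as CISH and the SOCS family are made in response to STAT activity and dampen it. In injured muscle IL-4 is known to reach FAPs from eosinophils, and FAPs there supply matrix, growth factors and chemokines to regenerating fibres or turn into fat cells.

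RNA was hybridised to bead arrays carrying 25697 probes, of which 23978 named 1 of 16593 genes. The deposited values run from 7.72 to 14.77 on a scale read here as log2, and every array has the same distribution of values. In 57.0% of the probes the mean over 16 arrays lay within 0.15 of the lowest value, called the floor below, where differences are compressed. Principal component analysis of the 8 wild-type arrays put 75.3% of the variance on the first axis, with the vehicle arrays at -13.2 to -12.3 and the IL-4 arrays at 10.9 to 14.01. IL-4 array 5 lay at -8.94 on the second axis (8.20%) and had the lowest array weight, 0.682. Markers of the labelled cell type were present. Of 12 measured FAP markers 11 lay above the floor, among them Pdgfra at 10.17 ± 0.10 under vehicle and 10.10 ± 0.16 with IL-4 (mean ± SD, n = 4 each). All 7 measured leukocyte markers, 5 of 6 myogenic, 4 of 6 endothelial, 3 of 6 mural and 2 of 3 tenocyte and Schwann cell markers lay at the floor. Adipocyte markers were present too, with 1 of 4 at the floor. Their mean level was 9.32 to 9.39 on the vehicle arrays, against 9.43 to 9.51 for the FAP markers. The adipocyte mean rested mainly on Adipoq at 12.68 under vehicle, with Plin1 at 9.04 and both Retn and Lep at 7.88. Levels of different probes do not give the share of each cell type. The arrays measure whole cultures, so fewer cells of a type and less RNA per cell cannot be told apart.

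IL-4 changed a broad set of genes by mostly small amounts. In one linear model over all 16 arrays (limma, two-sided, Benjamini-Hochberg adjusted p under 0.05), 3510 probes, or 13.7%, passed. Of these, 1630 were higher with IL-4 (6.34%) and 1880 were lower (7.32%). With the brightest probe standing for a gene, 1185 of 16593 genes rose (7.14%) and 1458 fell (8.79%). These shares are the background against which the gene groups below are read, together with a median log2 change over all genes of -0.0016. The median size of a called change was 0.24, against a mean SD within a group of 0.036 under vehicle and 0.042 with IL-4. The larger changes went mainly upward: 53 rises and 18 falls lay between 2- and 4-fold, and all 9 changes of 4-fold or more were rises. In 3146 of the 3510 called probes the 4 IL-4 arrays did not overlap the 4 vehicle arrays. Calls were made in 30.5% of the 11038 probes above the floor and in 0.941% of the 14659 at it. The shares over all genes include the many genes at the floor, so they are a low background for lists with few members there. Below, "rose" and "fell" are used only of genes past this threshold, changes are log2(IL-4) minus log2(vehicle) with the standard error of the fit, and "1 of 3 probes" gives how many of a gene's probes passed in that direction where not all did.

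**Figure D1:**
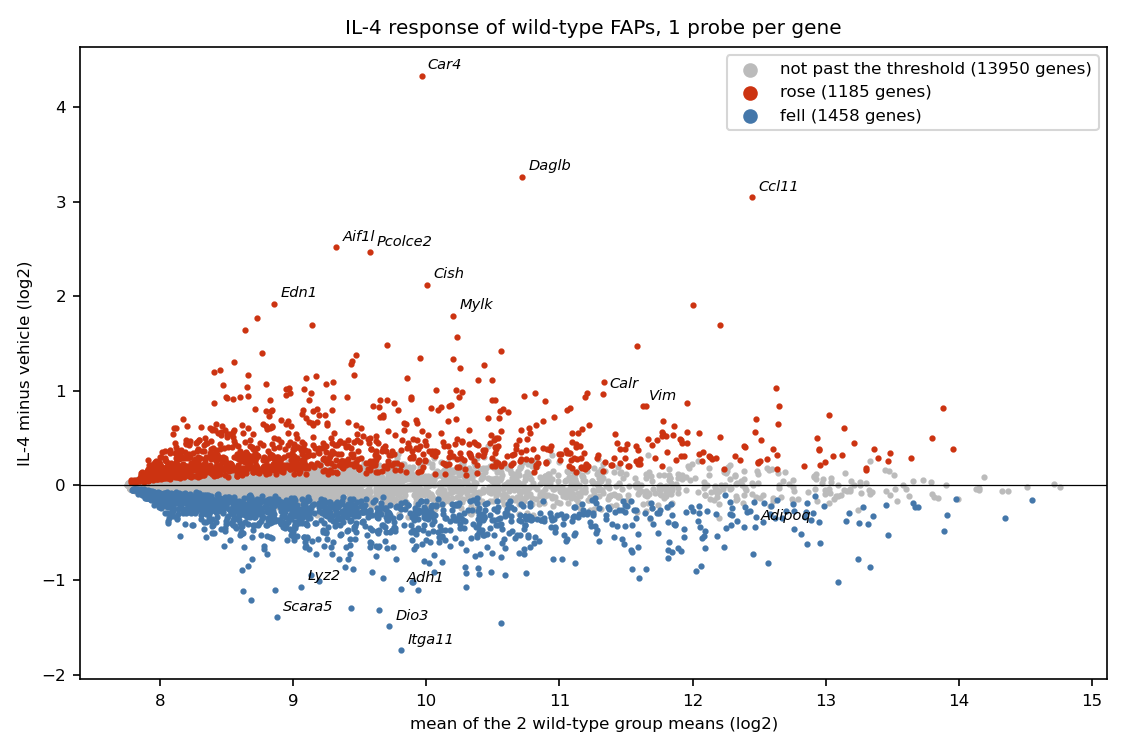
Log2 change with IL-4 in wild-type FAPs (y axis) against the mean of both group means (x axis, log2) for 16593 genes, 1 probe each. Red points rose (1185 genes), blue points fell (1458 genes), grey points did not pass the threshold; the points above 2 on the y axis are all rises, led by Car4.

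The values of leading genes on single arrays show the spread within each group. Genes were named among those whose groups do not overlap, so the separation of the largest changes was part of how they were chosen. Cish, the feedback inhibitor that binds activated cytokine receptors, read 8.95, 8.93, 8.88 and 9.02 on the vehicle arrays and 11.04, 11.05, 11.08 and 11.09 on the IL-4 arrays, a rise of 2.12 ± 0.033 (limma adjusted p = 2.14e-15). Daglb, a lipase that makes the endocannabinoid 2-arachidonoylglycerol, read 9.06, 9.12, 8.99 and 9.18 under vehicle and 11.98, 12.42, 12.47 and 12.55 with IL-4. In both genes the gap between the treatments was larger than the range within either group. Car4, the membrane-bound carbonic anhydrase, lay at the floor on all vehicle arrays (7.79, 7.81, 7.82 and 7.78) and at 11.95, 12.07, 12.26 and 12.25 with IL-4. Ccl11, the eosinophil chemoattractant eotaxin-1, read 10.58, 11.01, 11.05 and 11.05 under vehicle and 13.96, 14.09, 13.94 and 13.88 with IL-4, with vehicle array 1 below the other vehicle arrays. Itga11, the collagen-binding integrin chain with the largest fall, read 10.68, 10.73, 10.57 and 10.77 under vehicle and 9.05, 8.87, 8.96 and 8.88 with IL-4 (2 of 3 probes). The 4 values of each group lay close together.

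**Figure D2:**
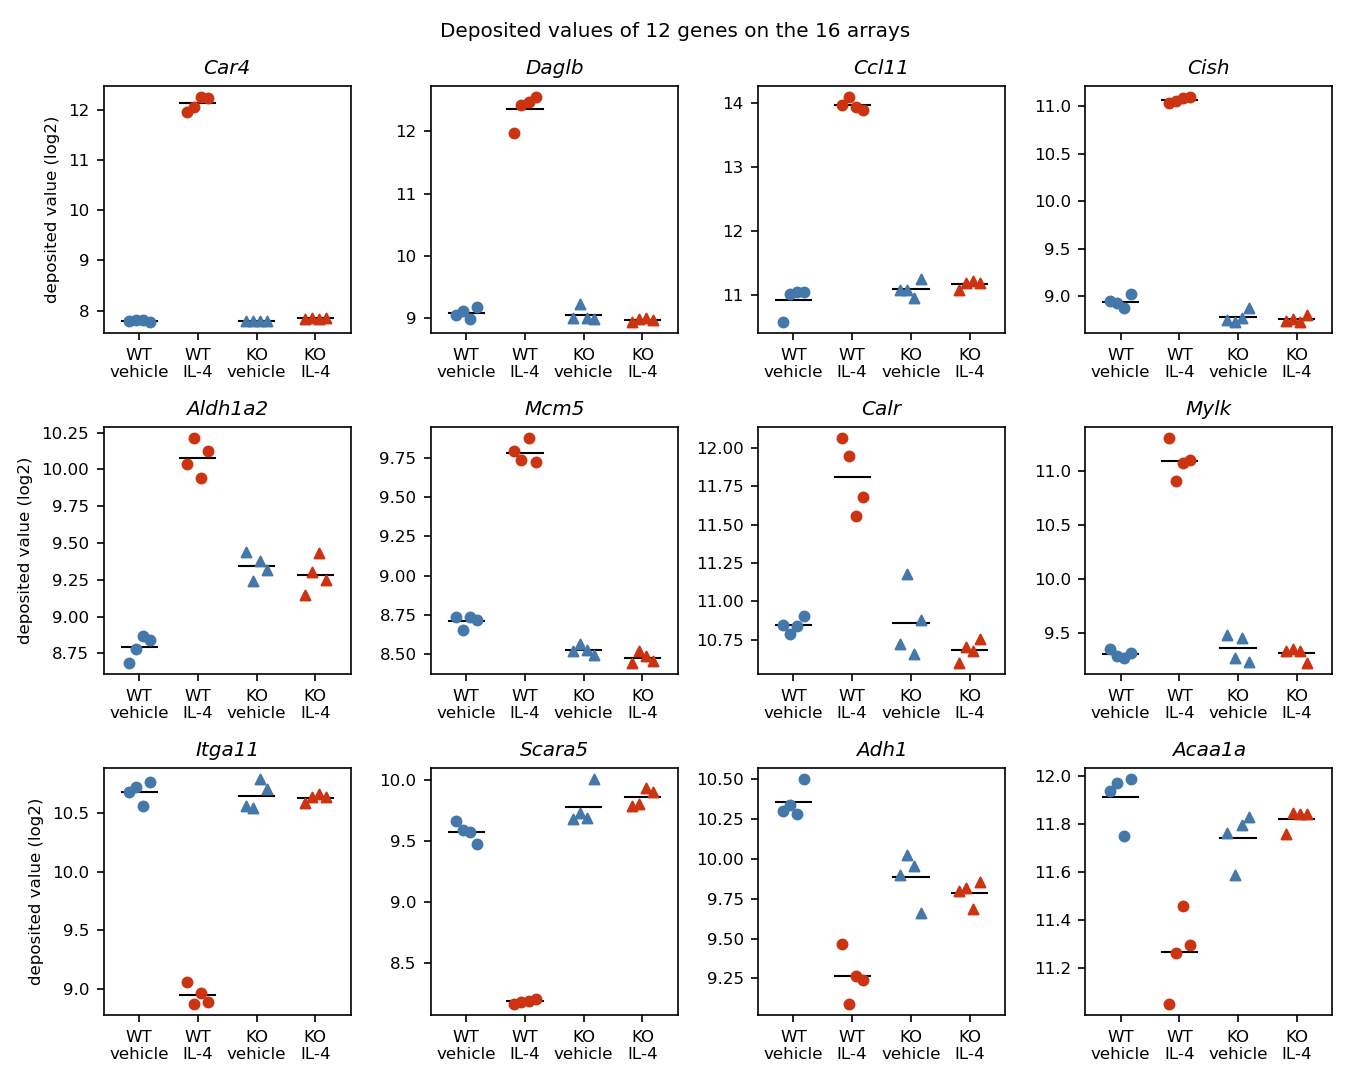
Deposited values (y axis, log2) of 12 genes on the 16 arrays, by genotype (WT wild type, KO IL4RA -/-) and treatment; each point is 1 array and the line is the mean of 4. In wild type every gene shows 2 groups that do not overlap, which for the largest changes was part of how they were chosen. The knockout groups lie close to each other.

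The start of Cish holds the STAT palindrome with a 3-base spacer in 2 adjacent copies, which is why this stretch is shown. It is read on the plus strand at chr9:107296659-107296678 in RefSeq's GRCm38.p6 and begins at the annotated start site, with the palindromes in capitals.
Cish: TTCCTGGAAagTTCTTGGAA
Some other strongly rising genes also hold a palindrome in their promoters. The windows searched ran from 250 bases before to 50 after each annotated start, on both strands, for TTCNNNNGAA and TTCNNNGAA, and a promoter was on file for 13336 measured genes. Pcolce2, an enhancer of procollagen processing, carries a 3-base palindrome that begins 170 bases before the start. Edn1, the endothelin-1 precursor, carries a 4-base one 185 bases before it. Arhgdib, which rose on 1 of 2 probes, carries a 4-base one 47 bases before the start. The 250 bases before each start are shown with the palindrome in capitals, at chr9:95637378-95637627 (plus strand), chr13:42301226-42301475 (plus strand) and chr6:136941504-136941753 (minus strand).
Pcolce2: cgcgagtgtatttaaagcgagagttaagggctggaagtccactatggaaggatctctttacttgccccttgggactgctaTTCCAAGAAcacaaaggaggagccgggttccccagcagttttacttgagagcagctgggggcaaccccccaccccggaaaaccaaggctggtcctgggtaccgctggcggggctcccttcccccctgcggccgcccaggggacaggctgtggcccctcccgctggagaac
Edn1: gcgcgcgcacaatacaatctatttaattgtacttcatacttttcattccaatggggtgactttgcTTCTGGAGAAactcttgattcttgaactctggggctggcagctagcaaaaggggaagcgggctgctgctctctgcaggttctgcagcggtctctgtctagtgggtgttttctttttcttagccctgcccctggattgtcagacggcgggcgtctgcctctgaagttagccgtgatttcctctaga
Arhgdib: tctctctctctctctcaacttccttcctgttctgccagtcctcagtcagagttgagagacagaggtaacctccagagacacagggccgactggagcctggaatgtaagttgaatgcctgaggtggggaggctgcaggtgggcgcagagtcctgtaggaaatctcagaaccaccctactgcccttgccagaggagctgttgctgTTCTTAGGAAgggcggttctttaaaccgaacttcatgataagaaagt
Of the 40 largest rises 32 had a promoter on file, and 8 of the 32 held a palindrome of either form. The 3-base form was present in 6 of the 32 (18.8%), against 9.18% of all measured genes with a promoter. The 4-base form was present in 3 (9.38%), against 7.46%. Over all rising genes the shares were 7.44% and 7.55%, below the share of all measured genes for the 3-base form and close to it for the 4-base form. A match is a stretch of letters and no measure of binding.

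Of the rises after the first 12, the mitotic, histone and replication genes go with the cell cycle genes below. Among them are Prc1, Cenpa, Anln, Birc5, Cdc20, H2ac7 and Mcm5. Others are described here. Smpd3, a neutral sphingomyelinase that makes ceramide, rose by 1.64 ± 0.030 from the floor. Pip4k2a, a phosphoinositide kinase, rose by 1.49 ± 0.070, and Hs3st1, a sulfotransferase that modifies heparan sulfate, by 1.40 ± 0.056. Rgs16, which shortens signalling by G protein-coupled receptors, rose by 1.34 ± 0.079. Plau, the urokinase plasminogen activator, read 10.66, 10.81, 11.07 and 10.83 under vehicle and 12.07, 12.37, 12.32 and 12.52 with IL-4, a rise of 2.78-fold without overlap. Rnase2a, an eosinophil-type ribonuclease, read 7.92, 7.89, 7.90 and 7.91 under vehicle and 9.06, 9.30, 9.24 and 9.25 with IL-4. Clca2, named for a family of regulators of chloride conductance, rose by 1.19 ± 0.035 from the floor, Adgre5, an adhesion receptor known as CD97, by 1.15 ± 0.046, and Nrcam, a cell adhesion molecule, by 1.07 ± 0.046. Msx1, a homeobox transcription factor, read 8.28, 8.22, 8.28 and 8.25 under vehicle and 9.21, 9.38, 9.41 and 9.32 with IL-4. The 40 largest rises ran from 1.07 to 4.33, with limma adjusted p of at most 2.44e-05, and 5 of the 40 lay at the floor under vehicle.

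The 40 largest falls were smaller than the largest rises and ran from 0.82 to 1.74 in size. None of them ended at the floor. A gene at the floor has little room to fall, so large falls can come only from genes well above it. Over all probes, 123 of the 1880 falls ended at the floor. Smoc1, a secreted calcium-binding matrix protein, read 10.86, 10.89, 10.85 and 10.75 under vehicle and 9.65, 9.75, 9.82 and 9.85 with IL-4. Slc1a3, a glutamate transporter, fell by 0.98 ± 0.076 from 12.09 ± 0.084 (mean ± SD). Sort1, the sorting receptor sortilin, fell by 0.90 ± 0.062 on its brightest probe, and all 4 of its probes fell. Gpat3, which starts glycerolipid synthesis, fell by 1.02 ± 0.079, and Cd1d1, which presents lipid antigens, by 0.93 ± 0.097. Fam110c read 9.82, 9.90, 9.92 and 9.92 under vehicle and 9.03, 8.95, 8.997 and 9.05 with IL-4. Tenm4, a teneurin, read 9.65, 10.02, 9.34 and 9.45 under vehicle and 8.82, 8.61, 8.69 and 8.54 with IL-4, and its groups were more spread than those of the other falls named here. Rab32, a small GTPase of vesicle transport, fell by 0.94 ± 0.075, Slc24a3, a sodium, potassium and calcium exchanger, by 0.92 ± 0.066, and Itm2a by 0.88 ± 0.075 (1 of 2 probes).

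Receptors and feedback inhibitors of cytokine signalling changed at a few points. Of 35 measured genes for Janus kinases, STATs and their inhibitors, 4 rose and 5 fell (falls 3 without vehicle array 2 or 3). Socs2, which damps growth hormone signalling, rose beside Cish and read 9.15, 9.20, 9.17 and 8.95 under vehicle and 9.31, 9.63, 9.73 and 9.69 with IL-4. Pim3, a kinase induced by STATs in other cells, fell by 0.44 ± 0.058, and Sh2b2, an adaptor of receptor kinases, by 0.14 ± 0.028. Stat6 itself was at 8.26 ± 0.034 under vehicle and 8.38 ± 0.050 with IL-4 (limma adjusted p = 0.0976), Il13ra1, the partner chain of the IL-4 receptor outside blood cells, at 9.13 ± 0.056 and 9.16 ± 0.056 (adjusted p = 0.773), and both were named after their values were seen. Among 59 interleukins, other cytokines and their receptors 11 rose and 6 fell, with a median of -0.0014. Il13ra2, the decoy receptor for IL-13, read 7.83, 7.83, 7.85 and 7.85 under vehicle and 9.55, 9.70, 9.61 and 9.58 with IL-4, from the floor to well above it. Tnfrsf11b, the decoy receptor osteoprotegerin, rose by 0.94 ± 0.046 and Tnfrsf12a, the receptor of TWEAK, by 0.79 ± 0.076. Ghr, the growth hormone receptor, read 10.68, 11.01, 10.86 and 10.76 under vehicle and 9.89, 9.88, 9.96 and 10.06 with IL-4 and did not overlap. Il1rn, the antagonist of the interleukin-1 receptor, fell by 0.89 ± 0.077 (1 of 3 probes).

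A few chemokine genes changed, in both directions. Among 28 measured CC and CX3C chemokines and receptors 4 rose and 3 fell, and 21 of the 28 lay at the floor. The share rising was 14.3%, against 7.14% of all genes, and the share falling 10.7%, near the 8.79% of all genes. Beside Ccl11 the rises were those of Ccl7 (1.11), Ccl2 (0.92) and Ccl8 (0.74), which attract monocytes. Ccl7 read 9.91, 9.98, 9.98 and 9.87 under vehicle and 10.80, 10.94, 11.14 and 11.31 with IL-4. The falls were those of Ccl9, another CC chemokine, by 0.53 ± 0.12, of Cx3cl1, which also attracts monocytes, by 0.15 ± 0.040, and of Ccl27a by 0.085 ± 0.027 (1 of 2 probes). Without vehicle array 1 Ccl9 was the only fall, since Cx3cl1 did not pass there and Ccl27a, near the floor, lost its call without any array other than IL-4 array 7. In the CXC family, 0 of 19 rose and 2 fell, and 12 of the 19 lay at the floor. The share falling, 10.5%, was near the 8.79% of all genes. Cxcl12, which retains blood progenitors in their niche, read 13.64, 13.77, 13.77 and 13.86 under vehicle and 13.07, 12.90, 12.60 and 13.02 with IL-4 (3 of 5 probes fell). Cxcl16, a membrane-bound chemokine, fell by 0.77 ± 0.069. Of 29 genes that mark IL-4-treated macrophages, 5 rose and 2 fell, led by Rnase2a and Flt1, and 19 of the 29 lay at the floor.

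Most listed genes of the replication machinery rose. Of 10 measured subunits of the replicative helicase 8 rose and 0 fell, a share of 80.0% against 7.14% of all genes, with a median log2 change of 0.44. Mcm4 read 9.78, 9.84, 9.75 and 9.75 under vehicle and 10.69, 10.84, 10.61 and 10.73 with IL-4 on its brightest probe (1 of 3 probes passed). At the replication fork 21 of 34 genes rose and 2 fell. Uhrf1, which carries DNA methylation through replication, rose by 1.04 ± 0.064 (1 of 2 probes), Fen1, the flap endonuclease, by 0.80 ± 0.041, Rpa1, the single-strand binding protein, by 0.72 ± 0.065, and the licensing factor Cdt1 by 0.55 ± 0.040, while Rpa3, a partner subunit of Rpa1, fell by 0.30 ± 0.053. For the enzymes of nucleotide synthesis the count was 12 rises and 1 fall of 24. Tyms, thymidylate synthase, rose by 0.91 (2 of 5 probes), Prps1, which supplies the activated ribose, by 0.71 ± 0.056, and Tk1, thymidine kinase, by 0.66 (1 of 3 probes). Slc29a1, a nucleoside transporter, fell by 0.53 ± 0.075. In serine and folate metabolism 3 of 11 rose and 1 fell. Psat1, an enzyme of serine synthesis, rose by 0.83 ± 0.096, and the folate enzymes moved apart, with mitochondrial Aldh1l2 up by 0.75 ± 0.062 and cytosolic Aldh1l1 down by 0.52 ± 0.056 (3 of 4 probes).

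Most listed mitotic genes rose as well. In the kinetochore and spindle checkpoint list 17 of 28 members rose and 0 fell (median 0.19). The list of mitotic kinases, motors and cytokinesis proteins gave 26 rises and 0 falls of 37 (median 0.21). Prc1, which bundles the microtubules of the dividing spindle, read 9.48, 9.46, 9.44 and 9.42 under vehicle and 10.99, 11.06, 11.12 and 10.90 with IL-4, a rise of 1.57 ± 0.064 (limma adjusted p = 2.38e-10) without overlap. Anln, the anillin of the cleavage furrow, rose by 1.35 ± 0.055 (2 of 3 probes), Birc5, known as survivin, by 1.16 ± 0.053, Cdc20, an activator of the anaphase-promoting complex, by 1.13 ± 0.070, and the kinase Plk1 by 0.97 ± 0.036. Mad2l1, the checkpoint protein MAD2, rose by 0.69 ± 0.051. Among 29 cyclins, their kinases and inhibitors 11 rose and 4 fell. Ccnd1, cyclin D1, read 10.33, 10.20, 10.36 and 10.16 under vehicle and 11.07, 11.21, 11.40 and 11.14 with IL-4, and all 3 of its probes rose. The inhibitor Cdkn1c, known as p57, read 10.11, 9.98, 10.04 and 10.20 under vehicle and 8.91, 8.72, 8.77 and 8.75 with IL-4, and the inhibitors Cdkn2c and Cdkn2b fell by 0.38 ± 0.071 and 0.39 ± 0.067. Cdk2 rose on all 4 of its probes, by 0.46 ± 0.040 on the brightest. In homologous recombination and Fanconi anaemia repair 8 of 29 rose and 0 fell, with Clspn, the checkpoint adaptor claspin, up by 0.61 (3 of 4 probes) and the helicase Blm by 0.38 (2 of 4 probes).

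Replication-dependent histone genes changed in both directions. Of 45 measured genes 7 rose and 7 fell. All 7 rises of the list were of H2A genes, with the largest in H2ac12 (0.91), H2ac24 (0.87), H2ac15 (0.87), H2ac10 (0.84) and H2ac20 (0.57). The falls included genes of other types and were largest for the linker histone H1f2 (-0.56), the H2B genes H2bc7 (-0.41), H2bc11 (-0.38) and H2bc9 (-0.38), and the H2A gene H2ac18 (-0.25). H2ac7, which is not on this list and is not in its counts, was among the 40 largest rises. It read 9.11, 9.51, 9.36 and 9.18 under vehicle and 10.16, 10.47, 10.74 and 10.34 with IL-4. H2A genes are very similar in sequence, so a probe may read several of them, which was not tested.

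Promoters of the replication and mitosis genes held the E2F motif TTCCCGC more often than promoters in general. It was found, on either strand between 250 bases before and 50 after a start, in 24 of the 94 genes with a promoter in the helicase, fork, kinetochore and spindle lists (25.5%). The share was 7.36% over all 13336 measured genes with a promoter, 14.3% over the rising ones, 8.71% over the falling ones and 0 of 32 among the 40 largest rises. Of the 24 genes with a match 15 rose and 1 fell (62.5% rose), and of the 70 without one 47 rose and 1 fell (67.1% rose). Within these lists the share that rose was no higher with the motif than without it. The promoters of Uhrf1 and of Chaf1b, a subunit of the histone chaperone CAF-1 that rose by 0.55 ± 0.028, are shown as examples, with the motif in capitals. They lie at chr17:56303087-56303336 and chr16:93883651-93883900, both on the plus strand, and begin 250 bases before the start.
Uhrf1: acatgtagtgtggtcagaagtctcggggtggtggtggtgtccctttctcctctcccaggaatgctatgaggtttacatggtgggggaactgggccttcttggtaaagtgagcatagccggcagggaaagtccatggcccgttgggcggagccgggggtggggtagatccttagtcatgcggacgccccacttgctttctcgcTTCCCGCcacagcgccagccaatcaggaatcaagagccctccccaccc
Chaf1b: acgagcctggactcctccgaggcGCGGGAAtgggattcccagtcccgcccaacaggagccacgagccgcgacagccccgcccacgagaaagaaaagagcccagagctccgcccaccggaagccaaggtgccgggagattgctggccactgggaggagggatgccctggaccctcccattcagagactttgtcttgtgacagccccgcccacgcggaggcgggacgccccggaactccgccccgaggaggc
In Chaf1b the first of 2 matches begins 227 bases before the start and the other lies 27 bases after it, outside the stretch shown, and in Uhrf1 the single match begins 48 bases before it. E2f1, which encodes a factor of the family named for this motif, rose by 0.50 ± 0.035.

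Many genes of the machinery that imports, folds and exports secreted proteins rose, and 1 fell. In the endoplasmic reticulum 21 of 45 genes of translocation and folding rose and 0 fell (median 0.15). Calr, the calcium-binding chaperone calreticulin, read 10.85, 10.79, 10.84 and 10.91 under vehicle and 12.06, 11.95, 11.55 and 11.68 with IL-4, a rise of 0.97 ± 0.11 (limma adjusted p = 1.86e-05) without overlap. Fkbp11, a peptidyl-prolyl isomerase, read 9.40, 9.44, 9.45 and 9.40 under vehicle and 10.32, 10.17, 10.47 and 10.46 with IL-4. Serpinh1, the collagen-specific chaperone HSP47, rose by 0.72 ± 0.084, Creld2 by 0.67 ± 0.075 and the disulfide isomerase Pdia4 by 0.66 ± 0.064. For the assembly of N-glycans the count was 10 rises and 0 falls of 31. Pmm1, a phosphomannomutase, rose by 0.80 ± 0.053, and the subunits Ostc and Ddost of the oligosaccharyltransferase rose by 0.56 ± 0.046 and 0.38 ± 0.083. Between endoplasmic reticulum and Golgi 15 of 32 rose and 1 fell, Sar1b, a GTPase of COPII vesicles (-0.18, 1 of 2 probes), a call lost without any 1 of vehicle arrays 1, 2 and 4 and IL-4 arrays 6, 7 and 8. The KDEL receptors Kdelr2 and Kdelr3, which return escaped chaperones, rose by 0.82 ± 0.081 and 0.64 ± 0.062, and Sec13, a coat protein of COPII vesicles, read 11.49, 11.65, 11.32 and 11.29 under vehicle and 12.10, 12.13, 12.14 and 12.10 with IL-4. Tmed9 and Tmed3, cargo receptors of the early secretory pathway, rose by 0.45 ± 0.079 and 0.46 ± 0.042.

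The promoters of 10 of the 89 genes of these 3 lists with a promoter on file (11.2%) held the ER stress element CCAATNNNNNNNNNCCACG, searched on both strands of the same windows. Over all measured genes with a promoter the share was 0.135%, or 18 genes. These lists hold known targets of the unfolded protein response, so the difference in share describes the lists and not IL-4. Of the 10 genes 3 rose with IL-4, namely Calr, Creld2 and Dnajc3, and 0 fell, against 34 rises and 1 fall among the 79 genes without the element. Creld2 and its neighbour Alg12, on the opposite strand, share the same copy, so this site counts for both genes. Alg12 did not pass (0.14 ± 0.053, limma adjusted p = 0.110). Hspa5, the chaperone BiP and the best known target of this element, was measured at 7.91 ± 0.010 without and 7.95 ± 0.051 with IL-4 on its brightest probe (limma adjusted p = 0.324), close to the floor. The promoters of Calr (chr8:84846932-84847181, minus strand), Creld2 (chr15:88819396-88819645, plus strand) and Hspa5 (chr2:34771840-34772089, plus strand) are set side by side with the element in capitals, since the first 2 genes rose and the last did not pass.
Calr: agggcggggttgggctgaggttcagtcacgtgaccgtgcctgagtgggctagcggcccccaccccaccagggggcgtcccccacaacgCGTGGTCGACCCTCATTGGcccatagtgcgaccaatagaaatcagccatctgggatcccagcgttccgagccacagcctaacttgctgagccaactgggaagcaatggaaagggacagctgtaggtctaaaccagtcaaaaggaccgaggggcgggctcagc
Creld2: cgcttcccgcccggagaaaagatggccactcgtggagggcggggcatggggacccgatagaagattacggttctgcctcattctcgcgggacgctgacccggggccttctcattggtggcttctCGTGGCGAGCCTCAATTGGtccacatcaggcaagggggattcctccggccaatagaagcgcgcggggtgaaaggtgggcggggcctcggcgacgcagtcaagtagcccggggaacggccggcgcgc
Hspa5: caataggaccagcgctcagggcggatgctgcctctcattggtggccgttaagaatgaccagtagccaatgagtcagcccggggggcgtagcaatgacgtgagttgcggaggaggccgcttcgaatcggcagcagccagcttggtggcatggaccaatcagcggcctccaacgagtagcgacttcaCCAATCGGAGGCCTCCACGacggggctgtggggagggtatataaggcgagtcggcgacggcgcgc
The element begins 162, 126 and 65 bases before the start in this order, and it is read on the opposite strand in Calr and Creld2. Genes with the element were found among those that rose and among those that did not pass. Among the latter, Hsp90b1 changed by 0.41 ± 0.13 (limma adjusted p = 0.0540), while Canx and Derl3 changed by -0.0050 and -0.035. Hspa5 lay close to the floor, where differences are compressed, so its reading says little on whether it responded.

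Other steps of protein synthesis moved less. In nucleolar ribosome biogenesis 8 of 48 rose and 0 fell (rises 5 without vehicle array 3 or 4), with the snoRNP protein Nop56 up by 0.45 ± 0.062 and Gnl3, nucleostemin, by 0.43 ± 0.082. Translation factors gave 5 rises and 2 falls of 39 (falls 0 without vehicle array 1 or IL-4 array 8 and 1 without vehicle array 2 or IL-4 array 5, 6 or 7), among them Eif5a (0.46). Cytosolic tRNA synthetases gave 5 rises and 0 falls of 21 (rises 3 without vehicle array 1 or 4 or IL-4 array 6, 7 or 8), with Rars up by 0.38. Nuclear transport factors gave 4 rises and 0 falls of 19, with Rangap1, which drives the Ran cycle, up by 0.46. The cytosolic chaperonin and HSP90 system gave 1 rise and 1 fall of 23, and the proteasome 1 rise and 5 falls of 35 (falls 3 without IL-4 array 6). Amino acid supply gave 6 rises and 4 falls of 28 (falls 2 without vehicle array 3 or 4 or IL-4 array 7). Slc7a5, which imports large neutral amino acids, read 9.81, 9.88, 9.78 and 9.56 under vehicle and 10.57, 10.67, 10.63 and 10.49 with IL-4, while Gpt2, a mitochondrial transaminase, fell by 0.43 ± 0.048.

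**Figure D3:**
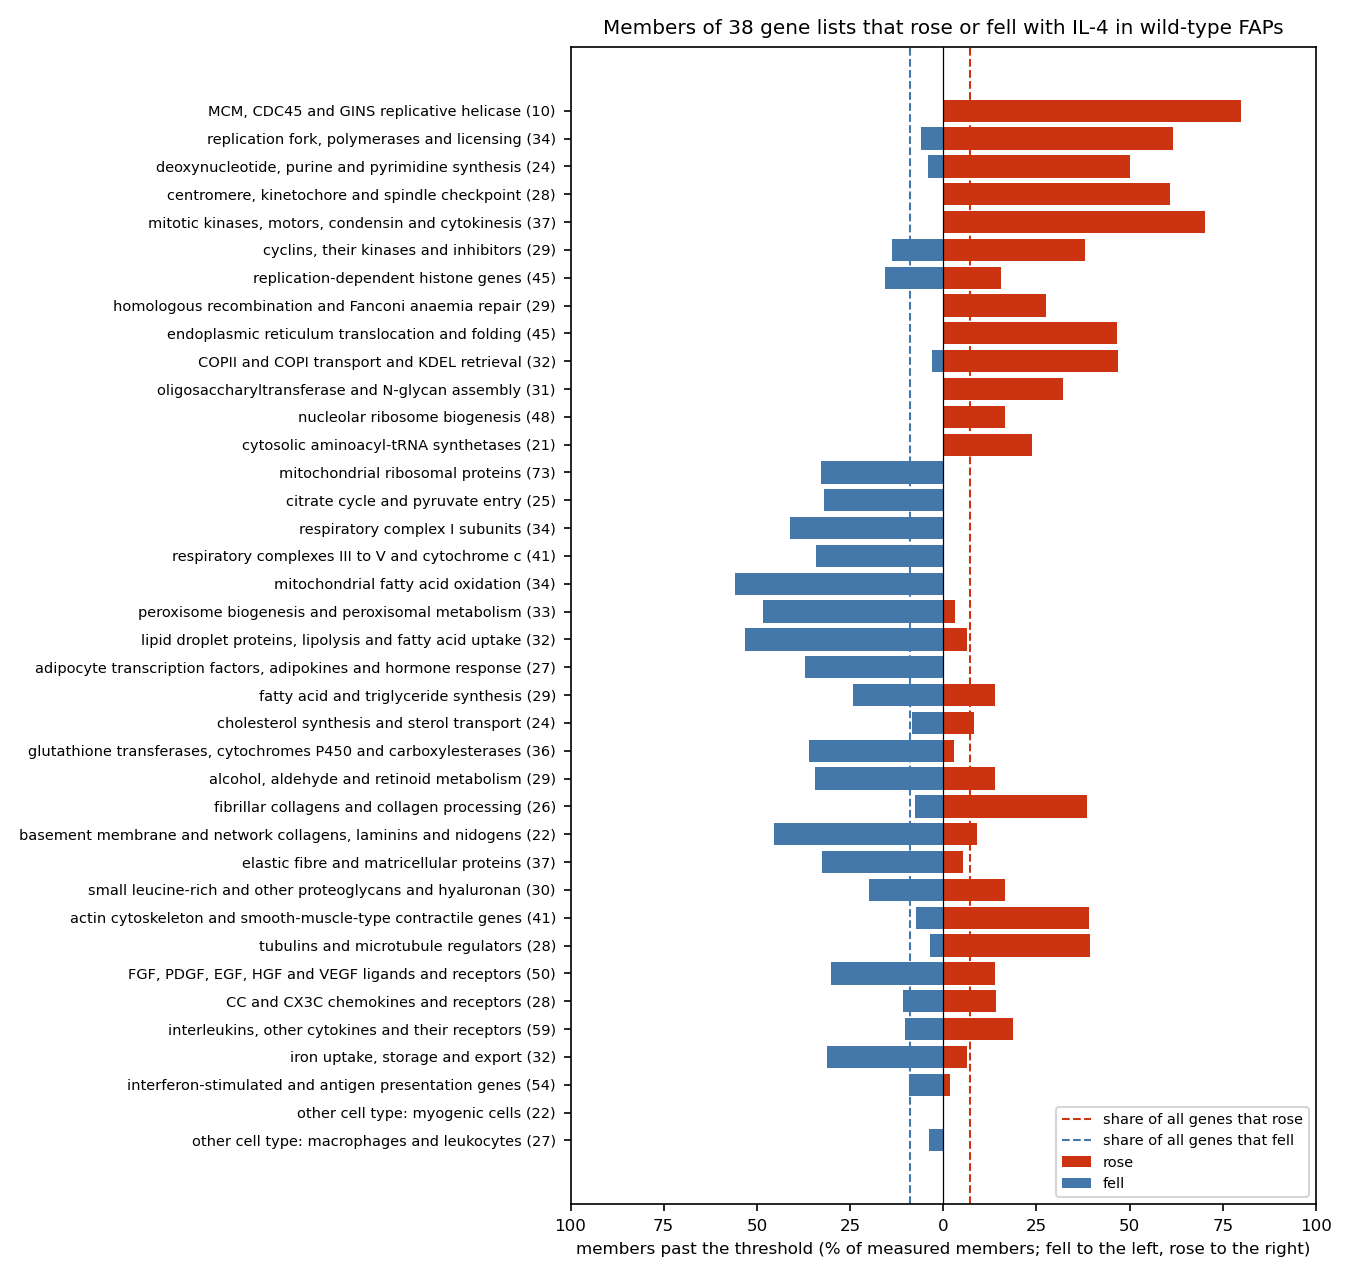
Share of the measured members of 38 gene lists (number in brackets) that rose (red, to the right) or fell (blue, to the left) with IL-4 in wild-type FAPs. Dashed lines mark the shares over all genes, those at the floor included, 7.14% rising and 8.79% falling. Replication, mitosis and secretory lists extend to the right, and mitochondrial, peroxisomal and lipid lists to the left.

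In the lists of mitochondrial ribosomal proteins, the citrate cycle and the respiratory chain, between 32.0% and 41.2% of the members fell and none rose. Of 73 mitochondrial ribosomal proteins 24 fell and 0 rose (median -0.13), against 8.79% of all genes falling. Only 5 of these 73, 2 of 25 citrate cycle genes and 2 of 34 complex I genes lay at the floor. Among all probes above the floor 30.5% were called in either direction. Mrps31 read 10.50, 10.65, 10.52 and 10.72 under vehicle and 10.20, 10.06, 10.21 and 10.16 with IL-4 (3 of 4 probes), and Mrpl30 fell by 0.42 ± 0.067. In the citrate cycle 8 of 25 fell (5 without vehicle array 4 or IL-4 array 6 or 8), with a median of -0.15. Idh3a, a subunit of the cycle's NAD-dependent isocitrate dehydrogenase, read 10.29, 10.37, 10.13 and 10.26 under vehicle and 9.80, 9.68, 9.92 and 9.65 with IL-4, a fall without overlap (limma adjusted p = 2.93e-05). Among complex I subunits 14 of 34 fell (6 without IL-4 array 6), with a median of -0.18, and 30 of the 34 changes were negative. Ndufa10 fell by 0.41 ± 0.080 and Ndufa9 by 0.37 ± 0.052. In complexes III to V 14 of 41 fell (9 without IL-4 array 6), with a median of -0.14. Cyc1, cytochrome c1 of complex III, read 11.92, 11.76, 11.74 and 11.96 under vehicle and 11.37, 11.39, 11.42 and 11.15 with IL-4, Uqcrc2 of the same complex fell by 0.46 ± 0.061, and Atp5c1 of the ATP synthase by 0.45 ± 0.093. The counts for the respiratory chain therefore rest in part on IL-4 array 6. The change was negative in 37 of the 41 genes of complexes III to V.

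Fatty acid oxidation had the largest share of falls among the energy lists. There 19 of 34 measured genes fell and 0 rose (median -0.19). Ivd, an acyl-CoA dehydrogenase of leucine breakdown, read 11.11, 11.14, 11.08 and 11.06 under vehicle and 10.44, 10.33, 10.33 and 10.39 with IL-4. Etfb, which passes electrons from the dehydrogenases to the respiratory chain, fell by 0.62 ± 0.057 on its brightest probe and on its other probe. Cpt2, which hands fatty acids to the mitochondrial matrix, fell by 0.54 ± 0.049 and the hydratase Echs1 by 0.55 ± 0.069. In peroxisomes 16 of 33 fell and 1 rose. Acaa1a, the peroxisomal thiolase, read 11.94, 11.97, 11.75 and 11.99 under vehicle and 11.05, 11.26, 11.46 and 11.29 with IL-4. Scp2, which carries sterols, fell by 0.54 ± 0.096 (3 of 4 probes), Pex16, which builds peroxisomal membranes, by 0.49 ± 0.071, and Gnpat, which starts ether lipid synthesis, by 0.45 ± 0.064, while Agps, the next enzyme of that pathway, rose by 0.24 ± 0.056. Glycolysis gave 1 rise and 4 falls of 18: Pfkp rose by 0.36 (1 of 3 probes), and Pfkl, another phosphofructokinase isoform, changed by -0.52 (1 of 2 probes) and Tpi1 by -0.40 (2 of 3 probes). In the pentose phosphate and glutathione list 2 rose and 8 fell of 28 (rises 6 without IL-4 array 5). The extracellular and secretory-pathway enzymes Sod3 and Gpx7 rose by 0.93 ± 0.043 and 0.72 ± 0.045, and cytosolic Taldo1 and Idh1 fell by 0.56 ± 0.069 and 0.42 ± 0.076.

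**Figure D4:**
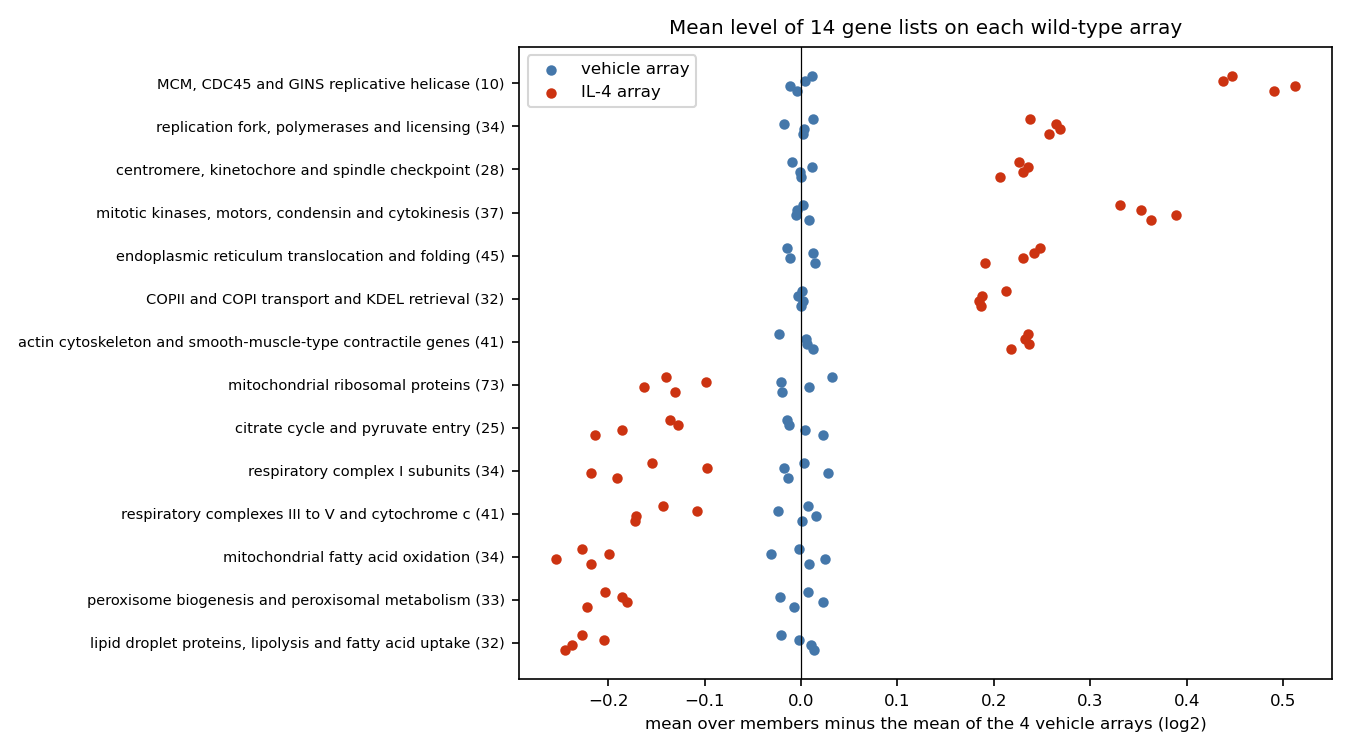
Mean level of the measured members of 14 gene lists on each wild-type array (x axis, log2, minus the mean of the 4 vehicle arrays; number of members in brackets). Blue points are the vehicle arrays and red points the IL-4 arrays; the red points lie to the right for replication, mitosis, secretory and contractile lists and to the left for mitochondrial, peroxisomal and lipid storage lists.

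The mean levels of these lists on single arrays show the same split. Over the complex I list the IL-4 arrays lay -0.22 to -0.097 from the vehicle mean, and the vehicle arrays -0.017 to 0.028. For fatty acid oxidation the IL-4 arrays lay at -0.25 to -0.20 and for the spindle list at 0.33 to 0.39. Over all 16593 genes the same measure lay within 0.0034 of 0 on every wild-type array, since each array carries the same distribution of values.

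Many genes of fat storage fell. Of 32 genes of the lipid droplet, lipolysis and fatty acid uptake 17 fell and 2 rose (median -0.19). Aqp7, the glycerol channel of adipocytes, read 9.95, 9.85, 10.03 and 10.16 under vehicle and 9.25, 9.22, 9.31 and 9.21 with IL-4, and all 4 of its probes fell. Plin4, a coat protein of lipid droplets, fell by 0.65 ± 0.091, G0s2, an inhibitor of the lipase ATGL, by 0.62 ± 0.083, and Apoe, apolipoprotein E, by 0.68 ± 0.11. Acsl5, an acyl-CoA synthetase, rose by 0.42 ± 0.039. In the list of adipocyte transcription factors and adipokines 10 of 27 fell and 0 rose (median -0.030). Adipoq, the adipocyte hormone adiponectin, read 12.49, 12.82, 12.77 and 12.65 under vehicle and 12.10, 12.32, 12.35 and 12.22 with IL-4. Of 4 measured markers of mature adipocytes 2 fell, Adipoq and Plin1, and Retn lay at the floor, Lep lay just above it, and their mean level was 9.32 to 9.39 on the vehicle arrays and 9.12 to 9.20 on the IL-4 arrays. The part of adipocyte RNA in the falls of lipid and mitochondrial genes was not tested. Cebpa, which drives adipocyte differentiation, fell by 0.40 ± 0.055, the insulin receptor substrate Irs2 by 0.59 ± 0.13, and Adipor2, a receptor of adiponectin, by 0.43 ± 0.054. In fatty acid and triglyceride synthesis 4 rose and 7 fell of 29. Dgat2, which completes triglycerides, read 10.93, 10.98, 10.79 and 11.07 under vehicle and 10.29, 9.98, 9.89 and 9.97 with IL-4, and Dgat1, the unrelated enzyme of the same step, fell by 0.54 ± 0.087. Fads3, a desaturase family member, and Elovl5, an elongase, rose by 0.42 ± 0.047 and 0.33 ± 0.072. Cholesterol synthesis and transport gave 2 rises and 2 falls of 24, a share near the background in both directions.

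Enzymes of lipid mediators changed in both directions. Of 35 genes of prostaglandins, phospholipases and endocannabinoids 5 rose and 7 fell, and 17 lay at the floor. Beside Daglb, Ptgis, the prostacyclin synthase, read 8.83, 8.74, 8.80 and 8.64 under vehicle and 9.88, 9.85, 9.82 and 9.85 with IL-4, Ptges, a prostaglandin E synthase, rose by 0.42 ± 0.025, and Ptgir, the prostacyclin receptor, by 0.16 ± 0.028. Mgll, which breaks down the product of Daglb, changed by -0.43 (2 of 3 probes). Napepld, which makes the related N-acylethanolamines, fell by 0.44 ± 0.043, Sphk1, a sphingosine kinase, by 0.57 ± 0.046 (1 of 3 probes), and Tmem86a, a lysoplasmalogenase, by 1.11 ± 0.088.

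Detoxification and retinoid genes fell more often than they rose. Among 36 glutathione transferases, cytochromes P450 and other detoxifying enzymes 13 fell and 1 rose. Mgst3, a microsomal glutathione transferase, read 12.15, 12.17, 11.93 and 12.13 under vehicle and 11.29, 11.20, 11.22 and 11.14 with IL-4. Cyp2f2 fell by 0.86 ± 0.072, the flavin monooxygenase Fmo1 by 0.82 ± 0.031, Gsta4 by 0.74 ± 0.093 and Ugt1a6a by 0.65 ± 0.077, while Ephx1, microsomal epoxide hydrolase, rose by 0.59 ± 0.069. In alcohol, aldehyde and retinoid metabolism 4 rose and 10 fell of 29, with a median of -0.0074 (falls 6 without vehicle array 2 or IL-4 array 6). Aldh1a2, which makes retinoic acid from retinal, read 8.69, 8.78, 8.87 and 8.84 under vehicle and 10.04, 10.21, 9.94 and 10.13 with IL-4 (limma adjusted p = 4.04e-09), and both its probes rose. Aldh1a3, of the same function, left the floor with a rise of 0.61 ± 0.066, Rdh5, a retinol dehydrogenase, rose by 0.45 ± 0.037, and the retinoic acid receptor Rarb, itself a known target of retinoic acid, by 0.23 (2 of 3 probes). Adh1, the class I alcohol dehydrogenase that oxidises retinol, read 10.30, 10.34, 10.28 and 10.50 under vehicle and 9.47, 9.09, 9.26 and 9.24 with IL-4 (limma adjusted p = 2.40e-07), and both its probes fell. Aldh3a1 fell by 0.34 ± 0.022 and Rarres2, the adipokine chemerin, by 0.35 ± 0.063.

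The lists of fibrillar collagens and of the basement membrane differed in their counts. Of 26 genes of fibrillar collagens and their processing 10 rose and 2 fell. Pcolce2 read 8.37, 8.32, 8.42 and 8.28 under vehicle and 10.85, 10.80, 10.79 and 10.81 with IL-4, and Bmp1, the protease that cleaves procollagen and is aided by this protein family, read 10.73, 10.71, 10.89 and 10.83 under vehicle and 11.92, 11.95, 11.68 and 11.96 with IL-4 (all 4 probes rose). Loxl4, a cross-linking oxidase, rose from the floor by 0.70 ± 0.026, and the collagen-modifying enzymes P3h1 and Colgalt1 by 0.46 ± 0.065 and 0.39 ± 0.074, while the lysyl hydroxylase Plod2 fell by 0.49 ± 0.071. Col1a1, the main fibrillar chain, was at 11.17 ± 0.12 under vehicle and 11.35 ± 0.14 with IL-4 (limma adjusted p = 0.428). In the basement membrane and network collagen list 10 of 22 fell and 2 rose. Both rises were collagen VI chains, Col6a2 (1.70) and Col6a1 (0.82), and Col6a2 read 11.42, 11.35, 11.24 and 11.40 under vehicle and 13.23, 13.05, 12.93 and 13.01 with IL-4. Col4a1 and Col4a2, the chains of the main collagen IV trimer, fell by 0.85 ± 0.074 and 0.70 ± 0.095. Col15a1 and Col18a1, collagens of the basement membrane zone, fell by 0.92 ± 0.059 and 0.98 ± 0.11 (2 of 3 probes for Col18a1), and the proteoglycan agrin (Agrn) by 0.65 ± 0.096.

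The other matrix lists differed in direction. Elastic fibre and matricellular proteins gave 2 rises and 12 falls of 37. Tnc, tenascin-C, rose by 0.91 ± 0.066 (4 of 6 probes), and Ccn2, connective tissue growth factor, read 12.32, 12.12, 12.25 and 11.95 under vehicle and 11.55, 11.51, 11.41 and 11.42 with IL-4. Ccn4 fell by 0.56 ± 0.064 and the fibulins Fbln2 and Fbln1 by 0.57 ± 0.075 and 0.53 ± 0.10 (2 of 3 probes each). Proteoglycans and hyaluronan genes gave 5 rises and 6 falls of 30 (rises 3 without vehicle array 2 or 4 or IL-4 array 8). Prelp, which anchors basement membranes to collagen, rose by 0.84 ± 0.11, Lum, lumican, fell by 0.42 ± 0.048, and Has2, a hyaluronan synthase, by 0.39 ± 0.025. Integrins and focal adhesion genes gave 4 rises and 3 falls of 28, with Itgb5 up by 0.78 ± 0.057 and the kinase Ilk by 0.53 (2 of 3 probes). Metalloproteinases, other proteases and their inhibitors gave 5 rises and 7 falls of 43 (rises 3 without vehicle array 2 or 4 or IL-4 array 7). Mmp3, stromelysin-1, read 9.68, 9.74, 10.09 and 9.78 under vehicle and 8.87, 9.07, 9.03 and 8.88 with IL-4, and all 3 of its probes fell. Timp1, an inhibitor of metalloproteinases, rose by 0.45 ± 0.076. Among serpins 3 of 23 rose and 1 fell. Serpina3n read 11.14, 11.10, 11.05 and 10.91 under vehicle and 12.83, 12.92, 13.004 and 13.07 with IL-4, and Serpinb1a, an inhibitor of neutrophil proteases, rose by 1.32 ± 0.069.

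Cytoskeletal genes rose in part. Of 41 actin cytoskeleton and contractile genes 16 rose and 3 fell. Mylk, the kinase of myosin light chain, read 9.35, 9.29, 9.27 and 9.32 under vehicle and 11.31, 10.91, 11.08 and 11.10 with IL-4. Aif1l, an actin-binding protein, read 8.04, 8.05, 8.10 and 8.07 under vehicle and 10.52, 10.61, 10.68 and 10.52 with IL-4. Fhl1, a LIM-domain protein, rose by 1.27 ± 0.058 and vimentin (Vim) by 0.84 ± 0.077. The smooth muscle marker Tagln fell by 0.12 ± 0.029 and Csrp2 by 0.36 ± 0.067, and Acta2, smooth muscle actin, was at 13.90 ± 0.071 under vehicle and 13.91 ± 0.10 with IL-4 (limma adjusted p = 0.993) on its brightest probe, while 1 of its 4 probes rose. Acta2 and Col1a1 were named after their values were seen. Tubulins and microtubule regulators gave 11 rises and 1 fall of 28. Tubb6 read 9.62, 9.51, 9.62 and 9.54 under vehicle and 10.36, 10.54, 10.65 and 10.77 with IL-4, and Tuba1a rose by 0.94 ± 0.071, Tubb2b by 0.80 (4 of 6 probes), Tubb4b by 0.60 ± 0.096 and Tuba1b by 0.51 ± 0.073. Tubulin genes are close in sequence, and some probes may read more than 1 of them.

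Ligands and receptors of growth factors fell more often than they rose. In the list of FGF, PDGF, EGF, HGF and VEGF families 15 of 50 fell and 7 rose. Mdk, the growth factor midkine, read 10.45, 10.35, 10.39 and 10.43 under vehicle and 9.37, 9.34, 9.42 and 9.43 with IL-4 (3 of 4 probes), Gas6, the ligand of TAM receptors, read 13.13, 12.94, 12.90 and 12.93 under vehicle and 12.26, 12.10, 12.06 and 12.19 with IL-4, Vegfa changed by -0.55 (2 of 3 probes), Fgf10 by -0.64 (2 of 3 probes) and Angpt4 by -0.53. Flt1, VEGF receptor 1, rose from 7.86, 7.85, 7.85 and 7.82 under vehicle to 8.86, 9.10, 9.32 and 8.99 with IL-4 on 1 of its 2 probes, and the EGF receptor Egfr by 0.47 (1 of 4 probes). Among TGF-beta, BMP and activin genes 3 rose and 9 fell of 50. Bmp4 read 9.42, 9.34, 9.60 and 9.31 under vehicle and 8.33, 8.35, 8.28 and 8.29 with IL-4, follistatin (Fst), which binds activins and BMPs, fell by 0.85 ± 0.076, and Smad6 and Id1, which BMP signals induce, fell by 0.33 ± 0.046 and 0.31 ± 0.062. For insulin-like growth factors the count was 3 rises and 4 falls of 19. The binding proteins moved apart: Igfbp5 read 8.29, 8.38, 8.27 and 8.23 under vehicle and 9.94, 9.94, 10.04 and 10.06 with IL-4, Igfbp6 rose by 0.85 ± 0.064, and Igfbp4 fell by 1.02 ± 0.055, while Igf1 fell by 0.51 ± 0.087. The Wnt list gave 4 rises and 7 falls of 42, with the antagonist Sfrp1 up by 0.73 ± 0.15, its relative Sfrp2 down by 0.47 ± 0.11, and the antagonists Apcdd1 down by 0.52 ± 0.077 and Dkk3 by 0.51 ± 0.068 (2 of 3 probes).

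Guidance and vasoactive genes changed in both directions. Semaphorins, ephrins, netrins and slits gave 4 rises and 7 falls of 45, and 23 of the 45 lay at the floor. The share rising was 8.89%, near the 7.14% of all genes, and the share falling 15.6%, against 8.79%. Sema3f rose by 0.92 (2 of 3 probes), and Slit2 and Slit3, ligands of Robo receptors, fell by 0.56 ± 0.071 and 0.36 ± 0.065. In the endothelin, angiotensin and kinin systems 2 rose and 8 fell of 34. Edn1 read 7.90, 7.93, 7.89 and 7.87 under vehicle and 9.74, 9.80, 9.89 and 9.85 with IL-4. Agtr1a, the angiotensin II receptor, read 9.11, 9.10, 9.32 and 9.19 under vehicle and 8.06, 8.01, 8.09 and 8.10 with IL-4, its ligand precursor Agt fell by 0.37 ± 0.060, and the kininogens Kng1 and Kng2 fell by 1.46 ± 0.057 (2 of 3 probes) and 1.01 ± 0.064. Kininogen genes are close copies, so these falls may not be separate. Of 3 angiopoietin-like genes 2 fell, Angptl7 by 1.21 ± 0.058 and Angptl1 by 0.10 ± 0.022. Angptl4, the remaining measured member, was at 11.23 ± 0.069 under vehicle and 11.16 ± 0.065 with IL-4 (limma adjusted p = 0.718). Notch and hedgehog genes gave 3 rises and 2 falls of 30, shares near the background.

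Genes of innate defence fell at several points. Of 36 genes of lipopolysaccharide sensing and antibacterial proteins 9 fell and 4 rose (rises 2 without vehicle array 1 or IL-4 array 5 or 8 and 1 without vehicle array 2 or IL-4 array 6). Lcn2, which binds bacterial siderophores, read 10.94, 10.999, 11.17 and 11.16 under vehicle and 10.27, 10.17, 10.11 and 9.94 with IL-4, Tlr2, a receptor of bacterial lipoproteins, fell by 0.50 ± 0.049, and the lysozymes Lyz1 and Lyz2, which are near-identical, fell by 1.32 ± 0.041 (1 of 3 probes) and 1.07 ± 0.068 (2 of 3 probes). Lyz2 is also a macrophage gene, while the leukocyte markers Ptprc, Adgre1 and Itgam lay at the floor in both groups. Complement genes gave 2 rises and 5 falls of 34, with C4b down by 0.75 ± 0.090 and the membrane inhibitor Cd59a by 0.48 ± 0.060. Interferon-stimulated and antigen presentation genes gave 1 rise and 5 falls of 54, so 9.26% fell against a background of 8.79%. The largest fall was that of the GTPase Gbp2 (-0.92, 1 of 3 probes). In iron handling 10 of 32 fell and 2 rose. Scara5, a receptor of ferritin, read 9.66, 9.59, 9.57 and 9.47 under vehicle and 8.17, 8.18, 8.19 and 8.21 with IL-4, the iron exporter Slc40a1 fell by 0.54 ± 0.060, and transferrin (Trf) by 0.54 ± 0.074. Of the 18 carbonic anhydrases and acid-base transporters Car4 alone rose and 4 fell, Car5b among them by 0.63 ± 0.13. Debris uptake and lysosomal genes gave 4 rises and 9 falls of 55, with the protease Ctsh up by 0.70 ± 0.096 and Cd63 by 0.61 (2 of 3 probes). The share rising was 7.27%, near the 7.14% of all genes, and the share falling 16.4%, against 8.79%.

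Identity genes of FAPs changed without a common direction. Of 24 FAP and mesenchymal markers 10 rose and 6 fell. Thy1 read 11.72, 11.68, 11.64 and 11.64 under vehicle and 12.31, 12.12, 12.37 and 12.15 with IL-4, Vcam1 rose by 0.49 ± 0.074, Hic1 by 0.43 ± 0.041, and Twist2 fell by 0.36 ± 0.032. Mesenchymal transcription factors gave 9 rises and 8 falls of 62, with Irx3 up by 0.94 ± 0.038, Osr2 by 0.66 ± 0.032, and Foxc1 down by 0.51 ± 0.035. Imprinted genes gave 2 rises and 8 falls of 29. Dio3, which inactivates thyroid hormone, read 10.51, 10.38, 10.64 and 10.34 under vehicle and 8.92, 9.09, 8.94 and 8.97 with IL-4, and Dlk1, a Notch-related inhibitor of adipogenesis, fell by 0.21 ± 0.032. Lists of other cell types changed little. Of 22 myogenic genes 0 rose and 0 fell, and 15 lay at the floor. Of 27 macrophage genes only Lyz2 fell and 0 rose, and 24 lay at the floor. Of 14 pericyte and smooth muscle genes 2 fell, Mcam (-0.58, 2 of 3 probes) and Tagln, and 0 rose. Of 13 tenocyte and Schwann cell genes 1 fell, and 0 rose. That fall was of Mbp, near the floor, and it did not pass without vehicle array 1 or 3 or IL-4 array 6, 7 or 8. Of 18 endothelial genes 3 rose and 1 fell: Flt1, the endothelial vesicle protein Plvap (0.34) and the coreceptor Eng (0.39) rose, Tek fell by 0.14 ± 0.042, a call lost without any 1 of vehicle arrays 1, 3 and 4 and IL-4 arrays 5, 6 and 7, and Pecam1 and Cdh5, which define endothelium, lay at the floor in both groups.

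The series included the same treatment of FAPs without the receptor chain, which asks whether the response needs it. Il4ra is not analysed here, so the genotype was taken from the labels and was not checked by the targeted gene. In the knockout 0 probes (0%) passed in limma, with a smallest adjusted p of 0.288, and 1 call with a trended robust variance. An unadjusted p under 0.05 was reached by 1439 of the 25697 probes. With that many probes tested, many such values arise by chance. The difference between the responses was tested directly as an interaction. It was called for 788 genes with a higher change in wild type (4.75%) and 875 with a lower one (5.27%), and at probe level 1001 of the 1630 rises and 1054 of the 1880 falls passed it. All 40 largest rises and all 40 largest falls passed. They were chosen by their wild-type change, which is part of the interaction, so their passing was close to fixed by the choice. The 95% interval of the knockout change included 0 for 39 of the 40 rises and 34 of the 40 falls. Cish changed by -0.023 ± 0.033 in the knockout and Aldh1a2 by -0.060 ± 0.067. The lists differed in how many members passed. For the helicase 7 of 10 had a higher change in wild type, for the spindle list 23 of 37, and for endoplasmic reticulum folding 17 of 45. A lower change in wild type was called for 10 of 34 genes of fatty acid oxidation, 13 of 32 of lipid storage and 9 of 22 of the basement membrane list. Of the complex I genes it was called for 2 of 34, and for the other members a difference between the genotypes was not detectable with 4 arrays per group.

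**Figure D5:**
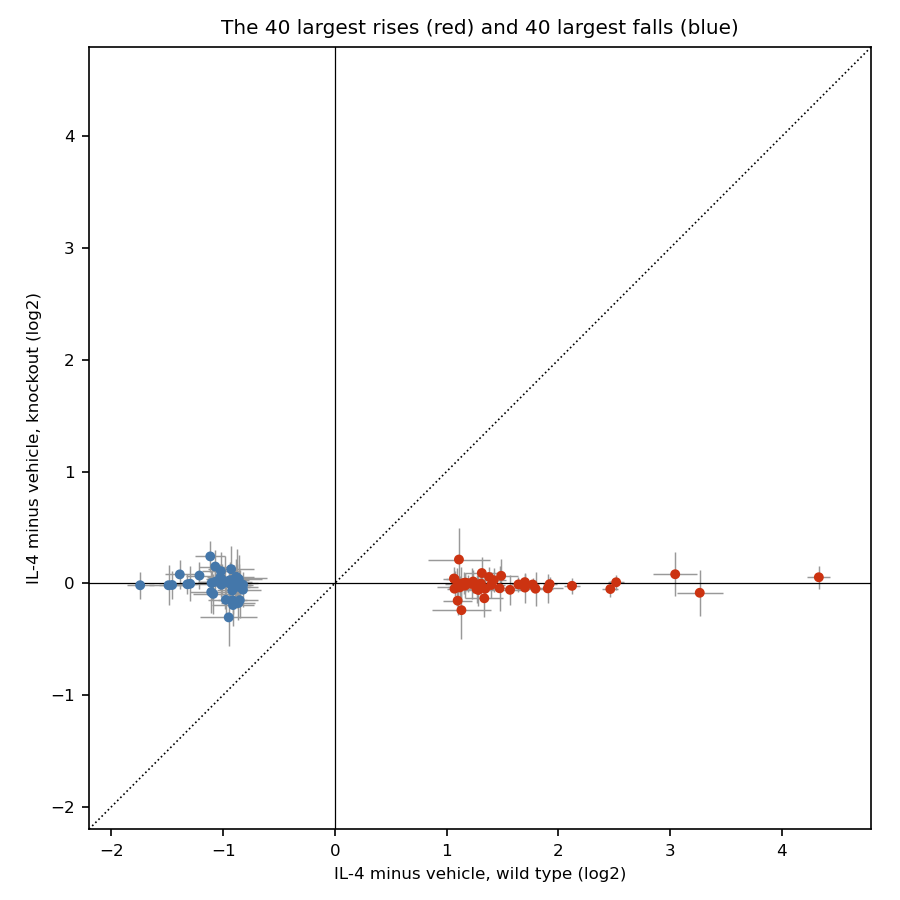
Log2 change with IL-4 in the knockout (y axis) against wild type (x axis) for the 40 largest wild-type rises (red) and falls (blue); bars are 95% confidence intervals and the dotted line marks equal changes. The knockout changes lie between -0.31 and 0.24, while the wild-type changes reach -1.74 and 4.33.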

How the data were processed

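Each sample's total RNA, from plated FAPs, was read on 1 Illumina MouseRef-8 v2.0 array, per the labels' protocols. The deposited values, read as log2, were quantile-normalized by the authors as far as their equal distributions show (largest gap 0.00059 between sorted arrays), and software, background correction and detection calls are not given in the sources used here. Depth does not apply to arrays; 4 arrays per group and the distance to the floor limit precision. Probe names came from the platform annotation: 23978 probes had 1 symbol, none had several, 1719 had none, and 23962 matched RefSeq. The brightest probe stood for a gene.

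Groups were taken from the titles and treatment labels. One linear model with 4 group means covered the 16 arrays (limma 3.58.1, R 4.3.3, 12 residual degrees of freedom), and contrasts were tested with Benjamini-Hochberg adjustment over 25697 probes, after a test on simulated data. Alternatives changed the normalization, the floor, the variance model, array weights, the threshold, the arrays and the probe rule. Same-numbered knockout arrays were checked for pairing, and the numbers were not treated as pairs. Named genes were the 40 largest rises and falls with groups that do not overlap, up to 5 rising and 5 falling members of each of 76 lists, all members of lists with 15 or fewer measured, and the brightest cell type markers. The lists and the genes were chosen with earlier results of these data known. List members were counted, with no set test. Promoters are RefSeq's (GRCm38.p6). Tables and figures used Python 3.11.15, pandas 2.3.3 and matplotlib 3.10.9. Il4ra, Mki67, Ccnb1 and Ly6a are not analysed here.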

Additional observations from a re-analysis of the deposited data

Results flagged for a closer look

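Among 56 groups of 4 arrays in wild type, made from 4 measures of each array and the 24 leading genes, 3 held 1 array far from the other 3 by Dixon's criterion, and chance gives about 1 in 20. Vehicle array 4 lay at -2.36 on the second principal component of the wild-type arrays. Ccl11 read 10.58 on vehicle array 1, below the other vehicle arrays, and Kng1 read 11.19 on vehicle array 2. In both genes the vehicle and IL-4 groups stayed apart.

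The response to IL-4 differed between wild type and knockout for all 12 leading rises and all 12 leading falls, tested as an interaction in limma at an adjusted p under 0.05 (4 arrays per group). These genes were chosen by their wild-type change, which the interaction contains, so their passing was close to fixed by the choice. As log2 wild-type change minus knockout change, the differences of the rises were 4.28 for Car4, 3.35 for Daglb, 2.97 for Ccl11, 2.52 for Pcolce2, 2.51 for Aif1l and 2.15 for Cish. They were 1.95 for Serpina3n, 1.93 for Edn1, 1.84 for Mylk, 1.78 for Il13ra2, 1.74 for Col6a2 and 1.69 for Igfbp5. Among the falls the differences were -1.73 for Itga11, -1.47 for both Dio3 and Scara5, -1.44 for Kng1, -1.36 for Agtr1a and -1.31 for Lyz1. They were -1.29 for Cdkn1c, -1.28 for Angptl7, -1.22 for Lyz2, -1.11 for Bmp4, -1.03 for Tmem86a and -0.99 for Adh1.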

How the results depend on the processing

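The wild-type response kept both counts within 1.5 times under every alternative run: rises ran from 1417 to 1656 and falls from 1585 to 1855 when 1 array was left out, and from 1146 to 1770 and 1261 to 2057 under the other settings. Without 1 array the interaction was called higher for 915 to 1094 probes and lower for 926 to 1142. At an adjusted p of 0.01 the interaction calls fell to 661 higher and 605 lower, which follows from the stricter threshold. The knockout response had 0 calls except under a trended robust variance (1), and the cause was not tested. With the title number as a replicate block on the knockout arrays it also had 0 calls, and same-numbered knockout arrays did not deviate together (correlations -0.22 to 0.14). No paired analysis was possible for wild type because its treatments share no number. Of 474 named genes that passed, 65 lost the call under at least 1 alternative, 60 of them without 1 array, and none of the 521 named genes reversed. Of 152 counts of list members, the 69 at or under 3 are the least firm, and 31 of them moved by over 1.5 times without 1 array, against 14 of the 83 larger ones. Differences near the floor are compressed, the log base is inferred, and the number of arrays limits precision.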

Other observations

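Hormone-responsive and stress-related lists changed in parts. Of 25 glucocorticoid-responsive genes 4 rose and 7 fell (rises 2 without vehicle array 1 or 4 or IL-4 array 7 or 8). Errfi1, a feedback inhibitor of EGF receptors, rose by 0.63 ± 0.062 and Fkbp5, a cochaperone of the glucocorticoid receptor, by 0.19 ± 0.029. Pik3r1, the regulatory subunit of PI3 kinase, fell by 0.66 ± 0.061 on its brightest probe and on all 3 of its probes, and Hsd11b1, which regenerates active glucocorticoid, read 11.05, 11.32, 11.15 and 11.07 under vehicle and 10.69, 10.49, 10.53 and 10.51 with IL-4. Among 30 targets of p53 10 rose and 4 fell. Gtse1, a mitotic protein of that list, rose by 0.91 ± 0.052 (2 of 3 probes), Plk3 by 0.41 ± 0.081 and Gadd45g by 0.39 ± 0.069, while Bbc3, the apoptosis inducer PUMA, fell by 0.23 ± 0.053 (1 of 3 probes). Hypoxia and HIF targets gave 1 rise and 4 falls of 31 (falls 2 without vehicle array 3 or IL-4 array 7), with Selenbp1 down by 0.73 ± 0.049.

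Immediate early genes gave 8 rises and 2 falls of 38. Jun, a subunit of AP-1, read 8.53, 8.49, 8.56 and 8.55 under vehicle and 9.15, 9.17, 9.10 and 9.18 with IL-4, and Klf6 rose by 0.40 ± 0.092 (1 of 2 probes). Ion channels and water channels gave 5 rises and 8 falls of 49. Kcnk6, a potassium channel, rose by 0.63 ± 0.025 (1 of 3 probes) and Aqp1, a water channel, by 0.59 ± 0.043 on all 3 probes, while Kcnab1 fell by 0.35 ± 0.036 (2 of 3 probes). Clock genes gave 2 rises and 1 fall of 21: Dbp, an output of the clock, fell by 0.49 ± 0.066, and Per2 rose by 0.17 ± 0.038 (1 of 3 probes).

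Of 4777 genes with several probes 408 had at least 2 called, and in 4 of them probes were called in opposite directions. These were Fuom, Pde4dip, Slc25a24 and Traf4, and the cause was not tested. They were named after their values were seen.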
